A study of Homo sapiens with 6 samples.

Results

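The NRF2 antioxidant pathway was followed in A549 cells through 9 genes chosen by their symbols: the transcription factor NRF2 itself (gene symbol NFE2L2), its inhibitor KEAP1, and the target genes NQO1, GCLC, GCLM, TXNRD1, SRXN1, SLC7A11 and HMOX1. All 9 were found among the 29845 genes of the count table and among the 29656 genes of the FPKM table. A549 is a long-established human cell line grown from a lung adenocarcinoma. In the control group the cells had been transfected with the empty pIRES-hrGFP-1a plasmid, and in the TFAM-OE group with the same plasmid carrying TFAM, a DNA-binding protein of mitochondria, fused to a FLAG tag. Both groups thus received lipid transfection and a plasmid, and no untransfected cells were sequenced. Polyadenylated RNA of 3 biological replicates per group was sequenced, so 6 libraries entered the comparison. In the TFAM-OE-labelled libraries, HMOX1, SRXN1 and NFE2L2 were lower than in the control, whereas KEAP1, NQO1, GCLC, GCLM, TXNRD1 and SLC7A11 did not pass the test.

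NRF2 is a transcription factor that KEAP1 holds for degradation through a CUL3 ubiquitin ligase. Oxidants and electrophiles that modify KEAP1 release NRF2, which then pairs with a small MAF protein at antioxidant response elements and raises genes of glutathione synthesis, thioredoxin recycling, NADPH supply and detoxification, while BACH1 competes for the same elements. A549 cells are known to carry mutant KEAP1 and to have NRF2 active without added stress, and counts per gene show neither the mutation nor the amount of NRF2 protein.

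The libraries held between 26650854 and 37321956 counted reads, and 16555 genes passed the filter on low counts and were tested, all 9 genes of the pathway set included. The TFAM gene was covered by 2555, 1878 and 2663 reads under control and by 2291, 2808 and 2492 reads under the TFAM-OE label, a change of 0.085 ± 0.096 (SE) in log2 units at an edgeR adjusted p of 0.623, with a 95% interval in fold change from 0.914 to 1.23, so that a higher TFAM mRNA was not detected in the libraries that carry its label. The study reported the tagged protein in a western blot against the FLAG tag, which is not analysed here. Among epithelial markers the keratin genes KRT8, KRT18 and KRT19 were at 125 CPM or more in every library, whereas EPCAM did not exceed 1.07 CPM and CDH1 did not exceed 8.30 CPM. The alveolar type II genes SFTPB, SFTPC and NKX2-1 stayed at 0.165 CPM or less, and SFTPA1 was not listed. The summed markers of immune, endothelial and fibroblast cells lay between 4.56 and 4.93 CPM in the control and between 2.79 and 5.03 CPM in the TFAM-OE-labelled libraries. The libraries of a group are described as biological replicates, with no word on separate days or passages. The p-values thus measure the spread between these libraries, in which culture and library preparation cannot be told apart.

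The proximal promoters of a few of these genes are shown because they are where an antioxidant response element can be read directly. The sequences come from RefSeq (GRCh38.p14) and run from 250 bases before to 50 bases after the transcript start, 5′ to 3′ on the strand of the gene. The core of the element was searched as TGACNNNGC on both strands, and matches are in capitals, with the opposite strand read as its reverse complement. Of 35116 promoters of this length that were searched, 13.3% held at least 1 match. GCLM and TXNRD1 are shown as targets with a match, and SRXN1 and NFE2L2 as genes that were lower in the TFAM-OE-labelled libraries and held none.
GCLM (chr1:93909381-93909680, minus strand): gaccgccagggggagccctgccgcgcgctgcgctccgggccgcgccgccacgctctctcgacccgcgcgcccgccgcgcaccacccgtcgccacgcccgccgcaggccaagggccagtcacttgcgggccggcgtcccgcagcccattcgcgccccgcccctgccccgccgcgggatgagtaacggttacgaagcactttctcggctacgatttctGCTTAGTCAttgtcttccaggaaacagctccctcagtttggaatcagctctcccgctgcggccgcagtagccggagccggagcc
TXNRD1 (chr12:104215529-104215828, plus strand, the upstream of 2 starts): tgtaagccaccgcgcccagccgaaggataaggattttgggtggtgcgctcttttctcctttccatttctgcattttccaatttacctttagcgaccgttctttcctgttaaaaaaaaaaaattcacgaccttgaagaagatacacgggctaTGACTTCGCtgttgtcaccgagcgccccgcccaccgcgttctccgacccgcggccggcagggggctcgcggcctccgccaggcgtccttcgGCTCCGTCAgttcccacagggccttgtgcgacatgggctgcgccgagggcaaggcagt
SRXN1 (chr20:653151-653450, minus strand): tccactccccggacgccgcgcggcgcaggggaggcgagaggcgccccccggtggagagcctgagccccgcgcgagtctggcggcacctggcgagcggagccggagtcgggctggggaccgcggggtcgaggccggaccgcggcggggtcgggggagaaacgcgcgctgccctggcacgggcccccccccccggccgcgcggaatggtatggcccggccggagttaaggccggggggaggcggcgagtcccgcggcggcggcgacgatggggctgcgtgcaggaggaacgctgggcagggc
NFE2L2 (chr2:177264082-177264381, minus strand, 1 of 2 starts): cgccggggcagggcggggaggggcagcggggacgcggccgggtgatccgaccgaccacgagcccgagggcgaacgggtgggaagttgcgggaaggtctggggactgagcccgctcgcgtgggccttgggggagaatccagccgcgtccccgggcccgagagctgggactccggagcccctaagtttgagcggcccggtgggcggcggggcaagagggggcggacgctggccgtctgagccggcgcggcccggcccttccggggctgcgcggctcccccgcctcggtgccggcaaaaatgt

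In the GCLM promoter the match read GCTTAGTCA, from 34 to 26 bases before the start and on the opposite strand. The same 9 letters stood in 1 of the 2 listed KEAP1 promoters (chr19:10502722-10503021), from 31 to 23 bases before the start, beside a second match that read TGACACGGC. TXNRD1 had 2 matches at its upstream start and 1 match, GCTTTGTCA, at the other start. No match lay in these windows for NQO1, GCLC, SRXN1 and both starts of NFE2L2, which says only that these letters were not in the window. HMOX1 and SLC7A11 had no entry in the promoter table. The motif TGACTCA, bound by AP-1 proteins, which matches both patterns when GC follows it, was found in none of the listed promoters of the set, and in 4.95% of the 35116.

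Levels were compared between genes on the FPKM scale, which divides by transcript length. In the control the order of the mean FPKM was NQO1, HMOX1, SRXN1, TXNRD1, GCLM, KEAP1, GCLC, NFE2L2 and SLC7A11. NQO1, a quinone reductase, had 495 ± 12.9 FPKM (SD, n = 3) in the control and ranked 105 among 29656 genes, and it had 517 ± 29.9 FPKM (SD, n = 3) in the TFAM-OE-labelled libraries, at rank 109. At the other end, SLC7A11, the cystine transporter, had 11.5 ± 2.23 FPKM (SD, n = 3) in the control. The ranges of HMOX1 and SRXN1, of SRXN1 and TXNRD1, and of NFE2L2 and SLC7A11 overlapped in the control, while the other neighbours in the order were apart. In the TFAM-OE-labelled libraries the order of the leading means was NQO1, TXNRD1, SRXN1 and HMOX1, with overlapping ranges of TXNRD1 and SRXN1. The transcript of the inhibitor, at 36.6 ± 0.901 FPKM (SD, n = 3) for KEAP1 in the control, was thus above that of the factor, at 15.6 ± 2.74 FPKM (SD, n = 3) for NFE2L2.

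**Figure D1:**
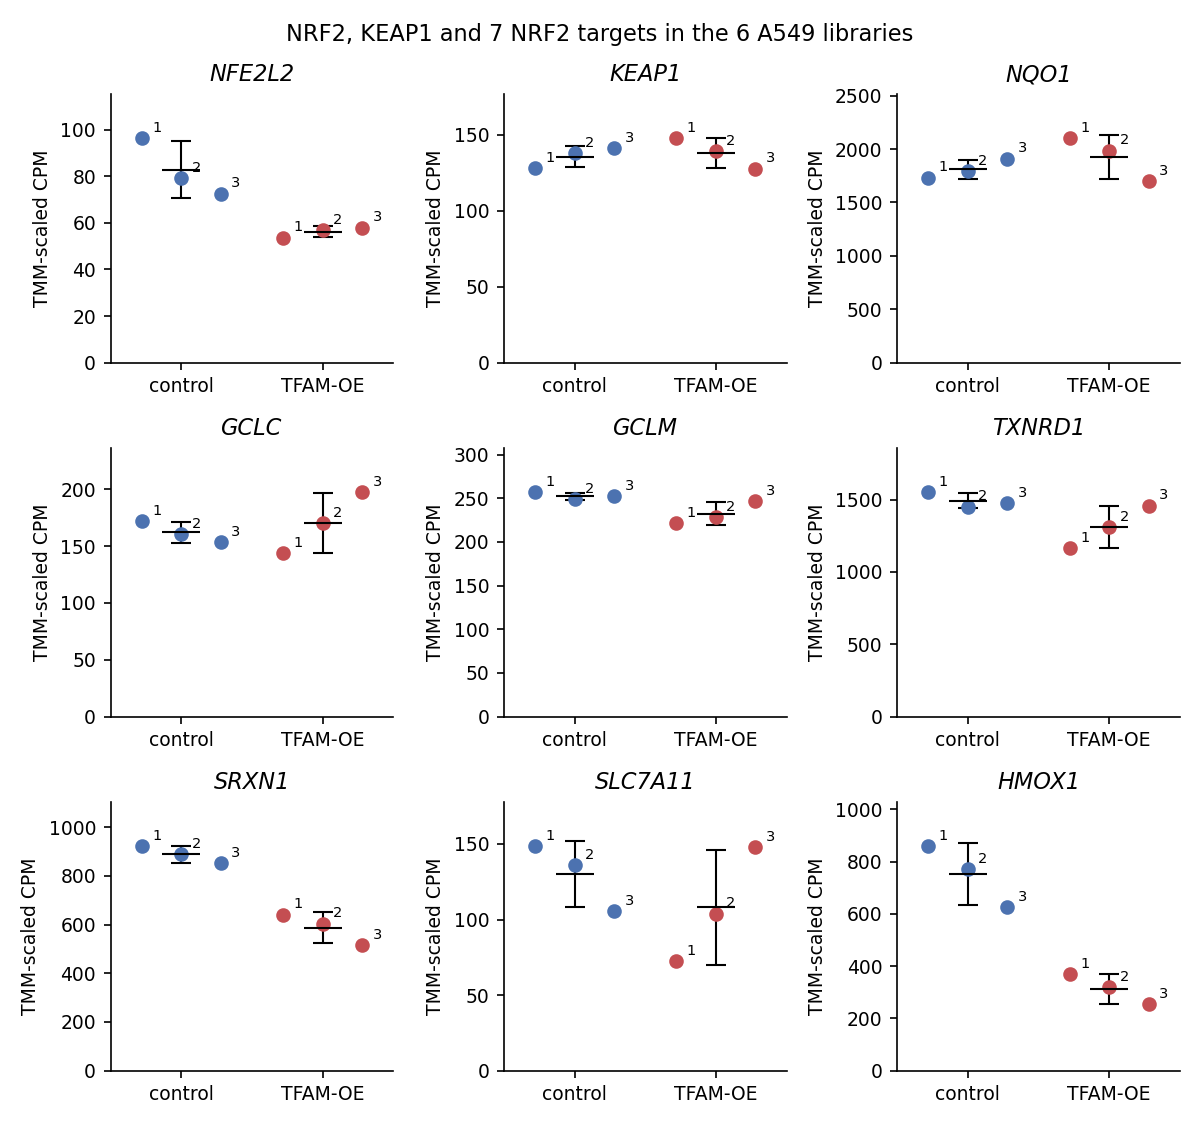
TMM-scaled CPM (vertical axis, from 0) of each of the 9 genes in the 3 control libraries (blue) and the 3 TFAM-OE-labelled libraries (red), numbered by replicate, with the mean and SD in black. For HMOX1 every control library is at 627 CPM or more and every TFAM-OE-labelled library at 369 CPM or less, and for SLC7A11 the points of the groups mix.

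The question put to these genes was whether cells given TFAM differ from cells given the empty plasmid. Of the 9 genes, 3 were called lower and 0 higher at an adjusted p below 0.05 in edgeR's quasi-likelihood test, against 4.81% of the 16555 genes tested called lower and 3.48% called higher. At an unadjusted p below 0.05 in the same test, 3 of the 9 were lower and 0 higher, against 2191 and 2017 of the 16555 genes tested. None of the 9 was called higher by DESeq2, by edgeR's exact test or by limma-voom. When a 2-fold difference was demanded as well, as the study did, 1 gene of the 9 was lower, HMOX1, against 2.07% of all genes tested, and 0 were higher, against 0.447%. In 4 of the 9 genes the groups did not overlap, which was also so for 31.7% of all genes tested. The 9 genes had a median of -0.19 in log2 fold change, and all genes tested had one of -0.0084.

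HMOX1 encodes heme oxygenase, which splits heme into biliverdin, iron and carbon monoxide, and its gene is under the control of both NRF2 and the repressor BACH1. It is ENSG00000100292.16 in the files and lies on the plus strand of chromosome 22 (35380361 to 35394214, GRCh38). Its CPM values were 859, 773 and 627 in the control libraries and 369, 319 and 254 in the TFAM-OE-labelled libraries. The lowest control library was above the highest library of the other group. HMOX1 fell from 753 ± 117 to 314 ± 57.5 CPM (SD, n = 3 each), a change of -1.26 ± 0.16 (SE) in log2 units at an edgeR adjusted p of 0.0019, which is 0.417 times the control level (95% interval 0.327 to 0.532). HMOX1 passed the adjusted p threshold whichever single library was left out, at log2 fold changes between -1.39 and -1.12. HMOX2, the paralogous heme oxygenase that is not an NRF2 target, had 55.3 ± 5.97 CPM in the control and 66.4 ± 9.08 CPM in the TFAM-OE-labelled libraries (SD, n = 3 each), a change of 0.26 in log2 units at an edgeR adjusted p of 0.226.

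SRXN1 encodes sulfiredoxin, which repairs over-oxidized peroxiredoxins. The gene (ENSG00000271303.1) lies on the minus strand of chromosome 20 (646615 to 653200). Its CPM values were 921, 889 and 853 in the control libraries and 640, 604 and 517 in the TFAM-OE-labelled libraries, with a gap between the groups wider than the range of either. SRXN1 fell from 888 ± 34.1 to 587 ± 63.5 CPM (SD, n = 3 each), a change of -0.60 ± 0.11 (SE) in log2 units at an edgeR adjusted p of 0.011, which is 0.661 times the control level (95% interval 0.561 to 0.780). The direction held with any 1 library left out, but the adjusted p of SRXN1 rose to 0.065 without control replicate 1, 0.072 without control replicate 2 and 0.069 without TFAM-OE replicate 2. A same-strand gene that shares 2292 exonic bases with SRXN1 had at most 2 reads in a library.

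NFE2L2, the gene of NRF2 itself (ENSG00000116044.15), lies on the minus strand of chromosome 2 (177218667 to 177392756 in GENCODE version 44, a later version than the authors' identifiers). Its CPM values were 96.3, 79.4 and 72.6 in the control libraries and 53.7, 57.0 and 58.0 in the TFAM-OE-labelled libraries, with control replicate 1 the highest. NFE2L2 fell from 82.8 ± 12.2 to 56.2 ± 2.28 CPM (SD, n = 3 each), a change of -0.56 ± 0.12 (SE) in log2 units at an edgeR adjusted p of 0.021, which is 0.679 times the control level (95% interval 0.566 to 0.815). The adjusted p of NFE2L2 rose to 0.092 without control replicate 1, 0.086 without control replicate 2 and 0.104 without TFAM-OE replicate 2, and it was 0.095 by limma-trend on log2(FPKM + 0.1). Under offsets for transcript GC content and length, described below for SLC7A11, NFE2L2 changed by -0.39 on the log2 scale (edgeR adjusted p = 0.018). The gene shares exonic bases with HNRNPA3 on the opposite strand, which had between 6562 and 10927 reads a library and a change of 0.059 in log2 units at an edgeR adjusted p of 0.866. The library kit keeps the strand, but the use of strand in counting is not given, so the share of reads between NFE2L2 and HNRNPA3 is uncertain.

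**Figure D2:**
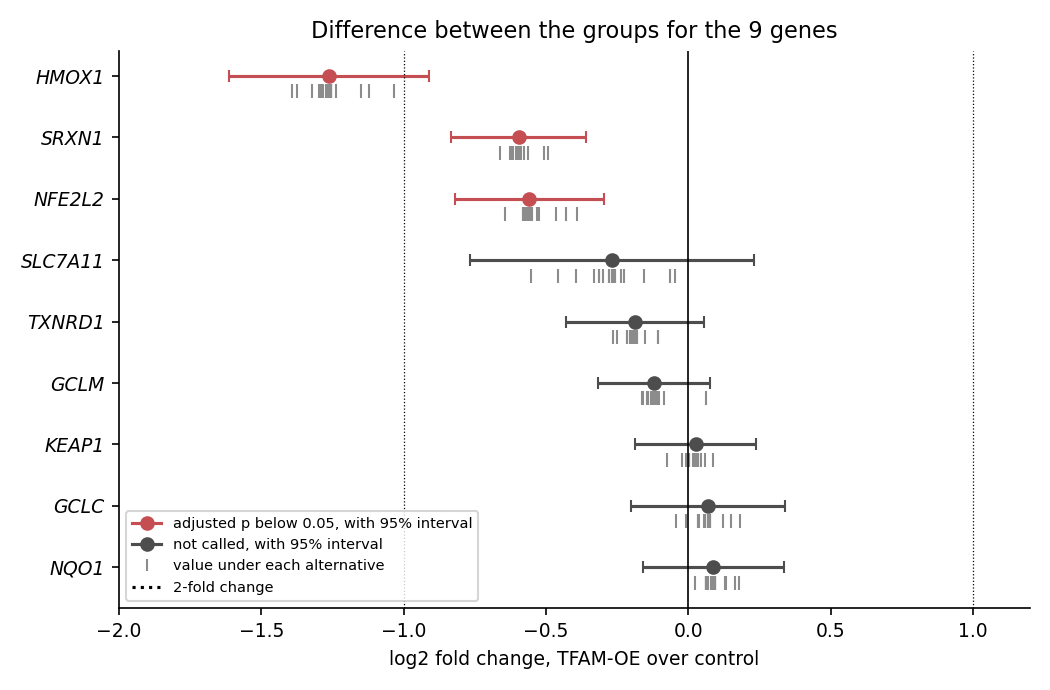
Log2 fold change (horizontal axis, TFAM-OE over control) of the 9 genes with its 95% interval from edgeR's quasi-likelihood fit, in red where the adjusted p is below 0.05, with grey ticks for the value under each of 19 alternative settings and dotted lines at a 2-fold change. Only the interval of HMOX1 reaches past the 2-fold line, and the intervals of the 6 genes not called include 0.

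KEAP1, the sensor that keeps NRF2 low, lies on the minus strand of chromosome 19 (10486125 to 10503558). It had CPM values of 128, 138 and 141 in the control libraries and 147, 139 and 128 in the TFAM-OE-labelled libraries. The groups covered nearly the same range, and the log2 fold change of KEAP1 was 0.027 ± 0.095 (SE) at an edgeR adjusted p of 0.889. Its 95% interval in fold change, from 0.879 to 1.18, bounds the difference at this number of replicates. The ratio of NFE2L2 to KEAP1, taken in FPKM within each library and therefore free of the scaling between libraries, was 0.428 ± 0.0863 in the control and 0.285 ± 0.0316 in the TFAM-OE-labelled libraries (SD, n = 3 each). The ratios of the groups did not overlap (exact permutation test on log2 ratios, two-sided p = 0.1, below which a comparison of 3 with 3 libraries cannot go, unadjusted over the 4 ratios tested). The ratio is not free of a trend on transcript GC content and length within a library, described below for SLC7A11. With offsets for that trend, chosen after the data were seen, the log2 fold changes were -0.39 for NFE2L2 and -0.075 for KEAP1.

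NQO1, the classical NRF2 target, lies on the minus strand of chromosome 16 (69706996 to 69726668), where an antisense gene that overlaps its exons had between 68 and 114 reads a library. NQO1 had CPM values of 1733, 1794 and 1910 in the control libraries and 2100, 1985 and 1697 in the TFAM-OE-labelled libraries. TFAM-OE replicate 3 was the lowest of all 6 and TFAM-OE replicate 1 the highest. The log2 fold change of NQO1 was 0.089 ± 0.11 (SE) at an edgeR adjusted p of 0.660, and its 95% interval in fold change ran from 0.896 to 1.26. The FPKM ratio of HMOX1 to NQO1 was 0.849, 0.739 and 0.563 in the control libraries and 0.301, 0.276 and 0.257 in the TFAM-OE-labelled libraries. The difference of the mean log2 ratios was -1.35 (exact permutation test, two-sided p = 0.1, the smallest possible here, unadjusted). Such a ratio does not depend on the scaling between libraries, though a trend on transcript GC content and length within a library can shift it.

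The genes of glutathione synthesis are GCLC and GCLM, the catalytic and the modifier subunit of glutamate-cysteine ligase, and SLC7A11, which imports the cystine the ligase needs. GCLC lies on chromosome 6 (53497341 to 53616970) and GCLM on chromosome 1 (93885199 to 93909456), both on the minus strand. GCLC had CPM values of 172, 161 and 154 in the control libraries and 144, 170 and 197 in the TFAM-OE-labelled libraries, so that TFAM-OE replicates 1 and 3 lay below and above the whole control range. Its log2 fold change was 0.070 (adjusted p = 0.761 by edgeR), and the 95% interval of the GCLC fold change was from 0.870 to 1.27. GCLM had CPM values of 257, 249 and 252 in the control libraries and 221, 229 and 247 in the TFAM-OE-labelled libraries. The groups did not overlap in GCLM, but the log2 fold change of -0.12 ± 0.089 (SE) did not pass the test (adjusted p = 0.426). The FPKM ratio of GCLM to GCLC was 1.60 ± 0.0775 in the control and 1.41 ± 0.150 in the TFAM-OE-labelled libraries (SD, n = 3 each), with overlapping groups (exact permutation test, two-sided p = 0.2, unadjusted).

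SLC7A11 lies on the minus strand of chromosome 4 (138164097 to 138242349). It had CPM values of 148, 136 and 106 in the control libraries and 72.5, 104 and 148 in the TFAM-OE-labelled libraries. The highest TFAM-OE-labelled library was 2.04 times the lowest, the widest range of the 9 genes in that group, and TFAM-OE replicate 3 was level with the highest control library. The log2 fold change of SLC7A11 was -0.27 ± 0.22 (SE) at an edgeR adjusted p of 0.490, with a 95% interval in fold change from 0.588 to 1.18. Without TFAM-OE replicate 3 the log2 fold change of SLC7A11 was -0.55 with an adjusted p of 0.027 by edgeR, and without TFAM-OE replicate 1 it was -0.046. The longest annotated SLC7A11 transcript has 9645 nt and a GC content of 35.4%, the longest and the lowest of the 9 genes. A smooth trend on transcript GC content and length was fitted in each library over all genes with both values. It was fitted to log2 CPM centred on the mean of each gene over the 6 libraries. At the place of SLC7A11 the log2 offsets were 0.25, 0.12 and -0.0093 in control replicates 1 to 3. They were -0.46, -0.093 and 0.19 in TFAM-OE replicates 1 to 3. The offsets thus also take up a difference between the groups that follows GC content or length. With these offsets in the fit, chosen after the data were seen, the log2 fold change of SLC7A11 was -0.065. SLC3A2, the heavy chain that carries SLC7A11 to the membrane, was called lower, at 1034 ± 107 CPM against 736 ± 104 CPM (SD, n = 3 each), a change of -0.49 in log2 units at an edgeR adjusted p of 0.045.

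TXNRD1, the cytosolic thioredoxin reductase, lies on the plus strand of chromosome 12 (104215779 to 104350307). It had CPM values of 1550, 1452 and 1475 in the control libraries and 1164, 1311 and 1459 in the TFAM-OE-labelled libraries, and TFAM-OE replicate 3 lay inside the control range. Its log2 fold change was -0.19 ± 0.11 (SE) at an edgeR adjusted p of 0.316, with a 95% interval of the TXNRD1 fold change from 0.742 to 1.04. The FPKM ratio of SRXN1 to TXNRD1 was 1.11 ± 0.0321 in the control and 0.851 ± 0.184 in the TFAM-OE-labelled libraries (SD, n = 3 each), without overlap (exact permutation test, two-sided p = 0.1, the smallest possible here, unadjusted).

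The replicates did not vary alike. Control replicate 1 had the highest CPM value of its group in 7 of the 9 genes. In the TFAM-OE-labelled libraries, replicates 1 and 3 were at the ends of the group in all 9 genes, and replicate 2 lay between them. Replicate 3 had the lowest HMOX1, SRXN1, NQO1 and KEAP1 of that group and the highest NFE2L2, GCLC, GCLM, TXNRD1 and SLC7A11. In that library the offsets for GC content and length, described for SLC7A11, split the genes in the same way. They were negative for HMOX1, SRXN1, NQO1 and KEAP1, from -0.15 to -0.044, and positive for the rest, from 0.018 to 0.19. Whether that trend sets the order of the replicates was not tested. Over the 6 libraries, with log2 CPM centred on the mean of each gene, NQO1 was most like KEAP1 (mean absolute difference 0.042) and TXNRD1 most like GCLM (0.047). SRXN1 and NFE2L2 were most like each other, at 0.133, and the gene nearest to HMOX1 was SRXN1, at 0.332. These distances describe the 6 libraries without offsets for GC content and length and were not tested. Without control replicate 1 and TFAM-OE replicate 3 together, a setting chosen after the data were seen, HMOX1, SRXN1 and NFE2L2 were still called lower, with log2 fold changes of -1.03, -0.49 and -0.46, while some genes of the further lists described later lost their calls.

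**Figure D3:**
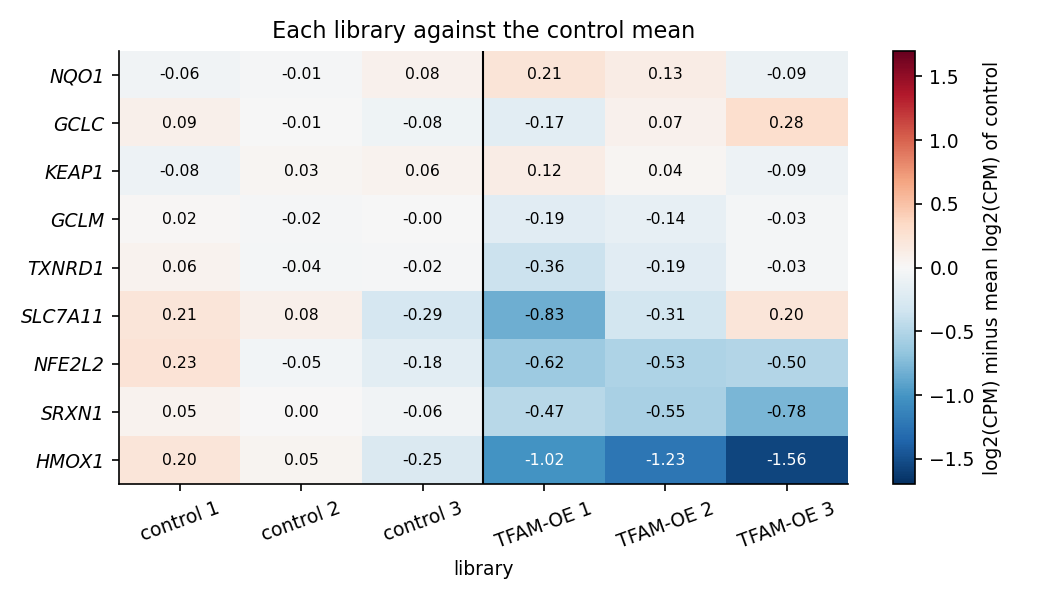
Log2 CPM minus the mean log2 CPM of the control libraries, for the 9 genes (rows, ordered by log2 fold change) in each of the 6 libraries (columns), on a colour scale from blue (lower) to red (higher). HMOX1 is at -1.02, -1.23 and -1.56 in the TFAM-OE-labelled libraries, whereas SLC7A11 goes from -0.83 in replicate 1 to 0.20 in replicate 3.

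Around NRF2, 13 genes of its control and its partners were listed and 12 tested. Of these, 4 were called lower and 0 higher by edgeR, against 4.81% and 3.48% of all genes tested, with a median log2 fold change of -0.11. At an unadjusted p below 0.05, 5 were lower and 1 higher, against 2191 and 2017 of the 16555 genes tested. The higher gene was DPP3, whose product binds KEAP1. DESeq2, edgeR's exact test and limma-voom also called 0 of the 12 genes higher. MAFF, a small MAF partner, had 41.2 ± 10.9 CPM in the control and 24.6 ± 3.31 CPM in the TFAM-OE-labelled libraries (SD, n = 3 each), a change of -0.74 in log2 units at an edgeR adjusted p of 0.038. MAFK, another small MAF gene, was called lower at -0.32 (adjusted p = 0.049), and MAFG, the third, was at -0.080 (adjusted p = 0.603). SQSTM1, the autophagy receptor p62 that draws KEAP1 away from NRF2 and is itself a target, was called lower at -0.53 (adjusted p = 0.046). NFE2L3, a related factor of the same family, was called lower at -0.43 (adjusted p = 0.020). BACH1, which represses HMOX1, had 16.4 ± 2.31 CPM against 11.7 ± 3.55 CPM (SD, n = 3 each), a log2 fold change of -0.48 that did not pass (adjusted p = 0.186). Upper-quartile scaling left 2 of the 4 calls, MAFF and NFE2L3.

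A further 41 genes known as NRF2 targets were listed in 5 groups by role, and 40 were tested. Of these, 3 were called lower and 4 higher, against 4.81% and 3.48% of all genes tested, with a median log2 fold change of 0.030. In the glutathione and cystine group, 1 of 11 was called lower, SLC3A2, and 2 were called higher. GPX2, a glutathione peroxidase of epithelia, rose from 11.7 ± 1.40 to 22.4 ± 7.32 CPM (SD, n = 3 each), a change of 0.94 in log2 units at an edgeR adjusted p of 0.026. GSTM4, a glutathione transferase whose reads could be shared with its close paralogs, rose by 0.75 on the log2 scale (adjusted p = 0.045). None of the 3 thioredoxin and peroxiredoxin genes TXN, PRDX1 and PRDX6 was called by edgeR, with log2 fold changes of -0.037, 0.14 and 0.21. No gene of that group was called by DESeq2, edgeR's exact test or limma-voom under the same filter. At an unadjusted p below 0.05 there were 0 lower and 0 higher, against 2191 and 2017 of the 16555 genes tested. With the offsets for GC content and length, however, PRDX6 was called higher.

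The 5 listed genes of NADPH supply, TKT, TALDO1, PGD, ME1 and IDH1, had positive log2 fold changes between 0.062 and 0.32, with a median of 0.17, and 0 were called by edgeR's quasi-likelihood test. At an unadjusted p below 0.05, 0 of them were lower and 2 higher, against 2191 and 2017 of the 16555 genes tested. DESeq2 and edgeR's exact test called TKT, the transketolase, higher, while limma-voom called 0 of the 5. TKT was also called higher when libraries were scaled by their size alone, and ME1 and IDH1 with the offsets for GC content and length. Of the 4 heme and iron genes, 0 were called lower and 1 higher, against 4.81% and 3.48% of all genes tested. The called gene was ABCB6, a porphyrin transporter, which rose by 0.84 on the log2 scale (adjusted p = 0.0026 by edgeR). The ferritin chains FTL and FTH1 had log2 fold changes of -0.065 and -0.27 and were not called. In these data HMOX1 and ABCB6, which both handle heme or its precursors, were thus on opposite sides of the control.

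In the detoxification group, 17 of 18 genes were tested, with 2 called lower and 1 higher, against 4.81% and 3.48% of all genes tested. OSGIN1, an oxidative stress induced growth inhibitor, fell by 0.67 on the log2 scale (adjusted p = 0.014 by edgeR), and NR0B1, an orphan nuclear receptor, fell by 0.58 (adjusted p = 0.038). ALDH3A1, an aldehyde dehydrogenase, rose from 773 ± 94.0 to 1166 ± 29.2 CPM (SD, n = 3 each), a change of 0.59 in log2 units at an edgeR adjusted p of 0.013. The aldo-keto reductases AKR1C1, AKR1C2 and AKR1C3 had log2 fold changes of -0.52, 0.10 and -0.091, none of them past the test, and AKR1C1 was nearest to it (adjusted p = 0.053 by edgeR). DESeq2, edgeR's exact test and the fit of all genes with a read called AKR1C1 lower, while limma-voom did not. These 3 genes are close paralogs between which the authors' counting could have split or dropped reads, so their values are uncertain.

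**Figure D4:**
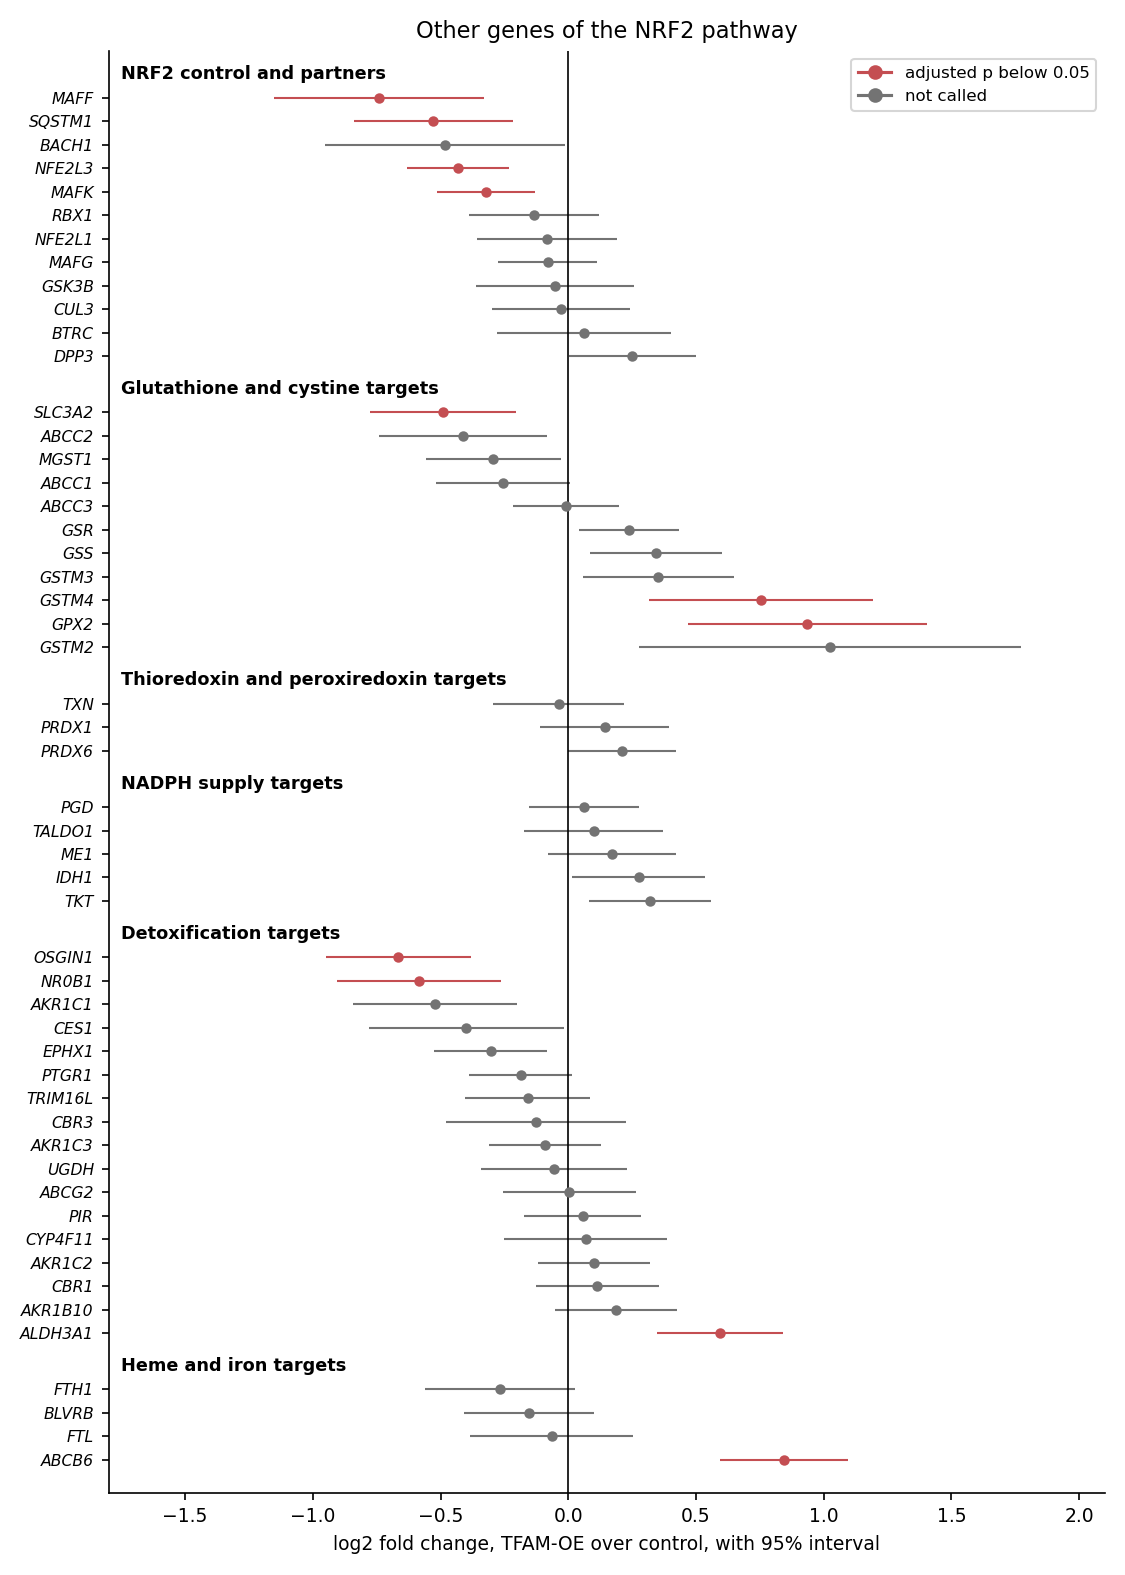
Log2 fold change (horizontal axis, TFAM-OE over control) with its 95% interval for the 12 control and partner genes and the 40 other NRF2 target genes that were tested, grouped by role, in red where the adjusted p is below 0.05. Called genes lie on both sides of 0, from MAFF at -0.74 to GPX2 at 0.94.

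Antioxidant enzymes not usually counted as NRF2 targets were listed as well, and 13 of 15 were tested. Of these, 1 was called lower and 1 higher, against 4.81% and 3.48% of all genes tested. SOD2, the mitochondrial superoxide dismutase and also a target of NF-kappaB, fell by 0.44 on the log2 scale (adjusted p = 0.037 by edgeR), and PRDX3, the mitochondrial peroxiredoxin, rose by 0.35 (adjusted p = 0.043). Genes of the ATF4 arm of the stress response share SLC7A11 and SESN2 with oxidative stress, and of 11 listed 3 were called lower and 3 higher, against the same 4.81% and 3.48%. ATF3 and DDIT3, stress-induced factors, were lower, with log2 fold changes of -2.83 and -2.22 (adjusted p = 0.0028 and 0.0037 by edgeR), and SESN2, a leucine sensor induced by oxidants, fell by 0.82 (adjusted p = 0.022). PHGDH, ASNS and PSAT1, enzymes of serine and asparagine synthesis, rose by 0.55, 0.53 and 0.43 (adjusted p = 0.0063, 0.016 and 0.031). In HMOX1, MAFF, ATF3 and DDIT3 control replicate 1 was the highest of the control libraries, and without it the log2 fold change was -1.15 for HMOX1, -2.21 for ATF3, -1.73 for DDIT3 and, no longer called, -0.51 for MAFF (adjusted p = 0.159 by edgeR).

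Of the 19 genes called in these further lists, ABCB6, ATF3, DDIT3 and PHGDH were called whichever single library was left out. The other 15 were lost without control replicate 1, without control replicate 2 and without TFAM-OE replicate 2, with adjusted p between 0.0576 and 0.236. MAFK and PRDX3 were also lost without TFAM-OE replicate 1, and MAFK, NFE2L3, SQSTM1, NR0B1, PRDX3 and PSAT1 without control replicate 3. Without TFAM-OE replicate 3, BACH1, AKR1C1, ABCC1 and ABCC2 were called lower in addition, and DPP3, GSS and TKT higher. AKR1C1 was also called lower without control replicate 3 and, with EPHX1 and MGST1, without TFAM-OE replicate 1. Without control replicate 1 and TFAM-OE replicate 3 together, MAFF, SLC3A2, GSTM4 and SESN2 lost their calls (adjusted p = 0.075, 0.069, 0.058 and 0.052 by edgeR), and the log2 fold change was -0.42 for MAFF and 0.54 for GPX2.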

How the data were processed

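Polyadenylated RNA of A549 cells was sequenced as paired reads in 6 libraries, 3 per group. The authors trimmed reads with the FASTX-Toolkit (0.0.13), discarded those under 16 nt, mapped them with TopHat2 at up to 4 mismatches on GRCh38, and deposited for each gene a raw count of uniquely mapped reads and an FPKM value, without pooling replicates. How reads were counted, and on which annotation, is not given in the sources used here. No pair of libraries of a group agreed within sampling noise (chi-square per gene from 8.06 to 62.0). Unused value columns numbered 0.

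Counts of the 16555 genes kept by filterByExpr were tested in R (4.3.3) with edgeR's quasi-likelihood test (4.0.16) after TMM scaling, two-sided, without pairing, with Benjamini-Hochberg adjustment over all genes tested. A gene was called at an adjusted p below 0.05. Standard errors and 95% intervals come from the same fit, group means ± SD are in TMM-scaled CPM, and levels between genes use the deposited FPKM. The method was tested on simulated data, drawn for each gene without a trend on GC content or length. That test does not show how the method performs with the trends in these libraries. The precision is set by the spread over 3 libraries per group, since counting error is small at these read numbers.

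The members and lists were chosen with earlier results of these data known, so a list's count is no independent evidence. Named are the 9 genes, up to 4 called genes of each other list by size of change, and SLC3A2, BACH1, the small MAF genes, HMOX2 and the AKR1C genes whatever their test. 1 listed gene is not reported here and enters no list count. DPP3, ASNS, PSAT1, TXN, PRDX1, PRDX6, the genes of NADPH supply, the ferritin genes and those called without 1 library alone were named after their values were seen. Likeness between members was the mean absolute difference of centred log2 CPM. Alternatives were limma-voom, limma-trend (3.58.1) on log2 FPKM with 0.1 or 1 added, DESeq2 (1.42.0), the exact test of edgeR, other scalings and filters, each library left out, and the replicate number as a block. Coordinates are from GENCODE version 44. Permutation tests used scipy (1.17.1).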

Additional observations from a re-analysis of the deposited data

How the results depend on the processing

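Over 19 alternative settings, the log2 fold change of HMOX1 lay between -1.39 and -1.03 and passed the adjusted p threshold in each. SRXN1 lay between -0.66 and -0.49 and NFE2L2 between -0.64 and -0.39, always lower, and they passed in 15 and 13 of the 19 settings. Of 171 values for the 9 genes, 154 kept their direction and their side of the threshold and 6 changed sign, all in genes that were not called. GCLC turned to -0.042 without TFAM-OE replicate 3 and to -0.0093 without that library and control replicate 1 together. KEAP1 turned to -0.0078 without control replicate 1, to -0.021 without TFAM-OE replicate 1 and to -0.075 with offsets for GC content and length, under which GCLM turned to 0.061. With 1 library left out, KEAP1 ranged from -0.021 to 0.087 and GCLC from -0.042 to 0.180.

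With 1 library left out, between 1 and 4 of the 9 genes were called lower, between 0 and 6 of the other target genes lower and between 1 and 6 higher, and between 0 and 5 control and partner genes lower and 0 to 1 higher. The genes called lower among all tested also moved widely over these fits. They went from 240 of 16859 without control replicate 2 to 1786 of 16941 without TFAM-OE replicate 3. With a replicate block, 1 of the 9 genes was called lower (HMOX1), 1 other target lower and 2 higher, and 0 control and partner genes lower, while the adjusted p was 0.061 for SRXN1 and 0.105 for NFE2L2. The labels give both groups numbers 1 to 3, and whether equal numbers mark paired cultures is not stated. Deviations from the group means correlated at -0.21, 0.0021 and -0.25 for numbers 1, 2 and 3 over 16555 genes. Control replicate 1 correlated with TFAM-OE replicate 3 at 0.23, and control replicate 3 with TFAM-OE replicate 1 at 0.24. Differences between libraries that span many genes can hide a pairing, so these values show none but cannot exclude it. No library correlated best with its own number. Over all genes, the block called 359, against 1372 without it, limma-trend 453 and 409, the fit of all genes with a read 2519, edgeR's exact test 2216, and the offsets 2763, of which 1157 were lower, against 796 of the 1372. Limma-trend on log2(FPKM + 0.1) and on log2(FPKM + 1) each called 1 other target lower and 2 higher, and 1 control and partner gene lower. Upper-quartile scaling left 2 control and partner genes lower, testing all genes with a read called 5 other targets lower, and the offsets called 5 lower and 11 higher. In simulated counts, the fit of all genes with a read gave false calls above the nominal rate. What caused the differences between the settings in the sequenced libraries was not tested. The number of genes called ranged from 306 without control replicate 2 to 3214 without TFAM-OE replicate 3. Depth was not the limit for the 9 genes, which had at least 1710 reads in every library.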
